A study of Ovis aries with 16 samples.

Results

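The amnion of fetal sheep whose urine had been drained and replaced volume for volume by lactated Ringer's solution (UDR, 4 animals) was compared with that of animals labelled as controls (C, 4 animals). These are 8 of the 16 libraries of the study. The other 8 libraries come from animals whose urine was drained and not replaced (UD, 4 animals) and from animals whose amniotic sac was infused with 2 liters of lactated Ringer's solution a day (IA, 4 animals). All 16 ewes carried 1 fetus, were at 121 ± 0.5 days of gestation at surgery (mean and SE, term 145 to 150 days), and bore catheters in maternal and fetal vessels, the amniotic sac and the fetal bladder, so the controls had been through the same surgery. The protocols lasted 2 days and the amnion was taken at once afterwards. The comparison ran over the 13569 of 25197 gene IDs that had a CPM, the count scaled to a common library total, of at least 1 in at least 4 of the 16 libraries.

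The amnion is the thin, vessel-free inner membrane of the fetal sac, an epithelium on a layer of connective tissue. Fetal urine is a main source of amniotic fluid, and part of that fluid returns to the fetal blood across the amnion, a route called intramembranous transport that is thought to run in large part by vesicles crossing the epithelium. Replacing urine by the same volume of a salt solution makes up for the fluid drained, but not for what urine brings besides water and salts. How far the volume and salts of the amniotic fluid were kept is not given in the values used here. The study's title asks about the transcripts of vesicular transport in this setting. The gene IDs are those of Ensembl for sheep. The deposited table does not pair them with names, and 0 of them matched the 35057 genes of the reference table used here, so vesicle coat, membrane fusion, aquaporin and cell type marker genes could not be looked up, and the label of the tissue could not be checked against its markers. Genes are therefore described by ID and by number.

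No gene passed the test between UDR and C. Of the 13569 genes in the edgeR quasi-likelihood test, fitted on all 16 libraries with Benjamini-Hochberg adjustment, 0 were called (0%), and no adjusted p lay below 0.73. Before adjustment 818 genes (6.03%) had a p under 0.05. The higher level was in UDR for 571 of them (4.21%) and in C for 247 (1.82%). DESeq2 called 31 genes, with 28 higher in UDR and 3 in C. Limma-voom with quality weights per sample called 0. The 818 genes became 514 without UDR 3, 504 without C 2, 526 without C 4, 1300 without C 1 and 1447 without UDR 4. Under upper quartile scaling the 788 genes at an unadjusted p under 0.05 were 454 higher and 334 lower, a more even split. The UDR and C libraries were sequenced in different lanes, C in lane 1 and UDR in lane 2, with second runs of UDR 2 and UDR 3 in lane 3 that hold most of their counts, so lane and treatment cannot be told apart within these 8 libraries. A lane term can be had from the UD animals, which were split over lanes 1 and 2. With it, taking the summed UDR libraries as lane 2, edgeR again called 0 genes. At an unadjusted p under 0.05 there were 495 genes, of which 140 were among the 818 with the same sign. This fit rests on the 4 UD animals for the lane, leaves out the IA libraries and is less precise. The SE of the log2 fold change of ENSOARG00000007806, described below, was 0.99 in it against 0.53 in the main fit.

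The higher gene with the smallest p was ENSOARG00000007806. It was at 25.1 CPM in UDR 1, 27.6 in UDR 2, 120.2 in UDR 3 and 16.04 in UDR 4, against 5.10 in C 1, 6.54 in C 2, 8.05 in C 3 and 5.29 in C 4. All 4 UDR values lay above all 4 control values, and UDR 3 stood well above the rest of its group. The level in the UD animals ran from 7.26 to 12.9 CPM and in the IA animals from 7.14 to 13.2, so the lowest UDR value was also above each of those 8. The fitted log2 fold change of UDR over C was 2.92 (SE 0.53, 95% interval 1.78 to 4.06); the adjusted p was 0.73 in edgeR and 2.16e-04 in DESeq2. Without UDR 3 the log2 fold change was 1.87. In the 2 sequencing runs of UDR 3 the gene was at 114.5 and 119.5 CPM, here without TMM scaling, and in those of UDR 2 at 26.0 and 25.4. Set against UD directly, the log2 difference was 2.24 (SE 0.52); the adjusted p was 0.50 in edgeR, 0.0086 in DESeq2 and 0.041 in limma-voom with quality weights. This difference was 1.19 without UDR 3. How many other genes DESeq2 and limma-voom called against UD was not counted.

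ENSOARG00000013082 was the other higher gene named by p. It was at 28.0 CPM in UDR 1, 103.6 in UDR 2, 346.3 in UDR 3 and 43.5 in UDR 4, against 9.86, 10.3, 17.5 and 11.3 in C 1 to C 4. The groups again did not overlap, but the UDR animals spread over more than a 10-fold range. Its fitted log2 fold change was 3.41 (SE 0.72, 95% interval 1.87 to 4.96); the adjusted p was 0.73 in edgeR and 0.0012 in DESeq2. Without UDR 3 the log2 fold change was 2.26. The UD animals held it at 21.3 to 51.5 CPM, all above the highest control, and the IA animals at 8.89 to 48.4 CPM. The log2 difference between UDR and UD was 1.92 (SE 0.68), and 0.76 without UDR 3; the adjusted p of the first was 0.50 in edgeR, 0.13 in DESeq2 and 0.49 in limma-voom.

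Among genes lower in UDR the smallest p was that of ENSOARG00000007076. It was at 16.3 CPM in UDR 1, 9.57 in UDR 2, 4.64 in UDR 3 and 21.0 in UDR 4, against 69.2 in C 1, 64.5 in C 2, 35.7 in C 3 and 100.7 in C 4. The highest UDR value was thus below the lowest control. The log2 fold change was -2.39 (SE 0.61, 95% interval -3.69 to -1.09); the adjusted p was 0.73 in edgeR and 0.035 in DESeq2. The level in the UD animals was also low, at 10.8 to 27.5 CPM, and the log2 difference between UDR and UD was -0.64 (SE 0.58); the adjusted p was 0.72 in edgeR, 0.70 in DESeq2 and 0.48 in limma-voom. Of the IA animals, IA 1, IA 2 and IA 4 were at 19.6, 12.1 and 19.7 CPM and IA 3 at 80.2, within the range of the controls. With the lane term the log2 fold change against C was -1.51.

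ENSOARG00000018006 showed a smaller and steadier difference. It was at 18.0 CPM in UDR 1, 16.04 in UDR 2, 22.6 in UDR 3 and 26.0 in UDR 4, against 30.4 in C 1, 28.4 in C 2, 38.5 in C 3 and 43.5 in C 4. The groups did not overlap, though UDR 4 came close to C 2. Its log2 fold change was -0.77 (SE 0.20, 95% interval -1.20 to -0.34); the adjusted p was 0.73 in edgeR and 0.0496 in DESeq2. The log2 fold change lay between -0.90 and -0.65 with any 1 of the 8 libraries left out. The UD animals were at 26.4 to 34.8 CPM and the IA animals at 24.5 to 29.9. The log2 difference between UDR and UD was -0.62 (SE 0.20); the adjusted p was 0.50 in edgeR, 0.092 in DESeq2 and 0.043 in limma-voom with quality weights.

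**Figure D1:**
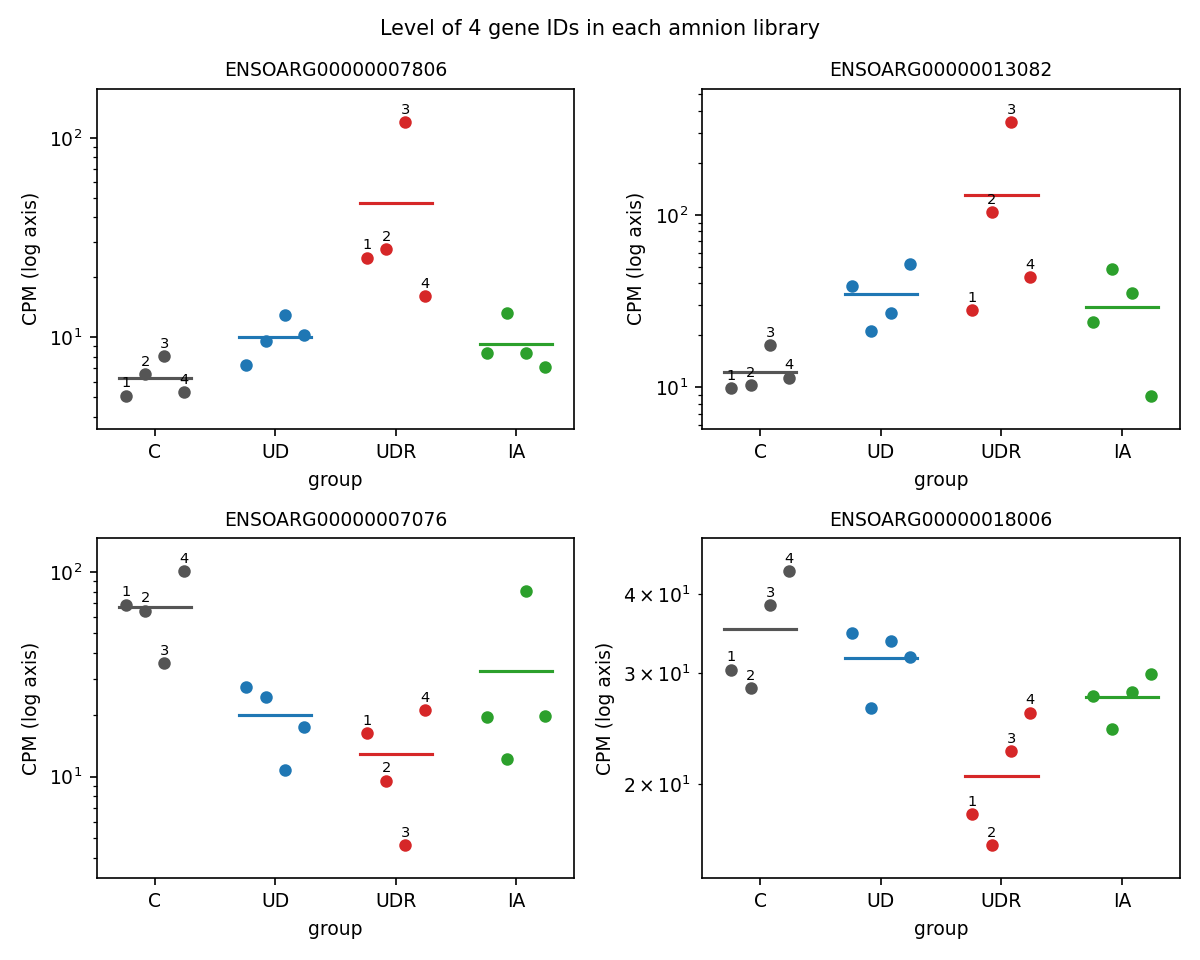
Level of the 4 gene IDs in CPM (log axis) in each of the 16 libraries, by group, with the group mean as a line and the replicate number beside each UDR and C point. For ENSOARG00000007806 and ENSOARG00000013082 all UDR points lie above all C points and UDR 3 is the highest, and for ENSOARG00000007076 and ENSOARG00000018006 all UDR points lie below all C points.

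Genes that varied in the same direction as these 4 IDs over the 16 libraries were counted by their correlation. Genes that varied inversely were not counted. No such counts were made for other genes, so whether the numbers are low or high for a gene was not tested. With ENSOARG00000007806, 4 other genes had a Pearson correlation of log2 CPM above 0.9 and 52 above 0.8. With ENSOARG00000013082 the numbers were 1 and 41, with ENSOARG00000007076 they were 0 and 1, and with ENSOARG00000018006 0 and 14. These are descriptions over libraries that all genes share, with their scaling, and the high values of UDR 3 enter each of the first 2 counts.

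Over all genes tested, 239 had all 4 UDR libraries above all 4 controls (1.76%) and 150 had them all below (1.11%), together 389 (2.87%). With group labels dealt at random to 4 against 4 libraries, a gene would separate fully, in either direction, with a probability of 0.0286. This is also the smallest exact permutation p possible with these libraries. The 389 genes were thus about as many as random labels would give on average. Their number alone therefore does not point to a difference between the groups. The choice of these genes fixed their direction, and their sizes were mostly moderate: the median log2 level relative to the mean of C was 0.65 in UDR 1, 0.68 in UDR 2, 0.86 in UDR 3 and 0.39 in UDR 4 for the higher genes. For the lower genes it was -0.74, -0.86, -1.02 and -0.50. UDR 4 was the animal nearest to the controls in each set and UDR 3 the farthest. In the other treated groups, set against the same controls, the higher genes had medians of -0.09 to 0.56 in UD and -0.07 to 0.25 in IA, and the lower genes -0.55 to 0.12 and -0.26 to 0.04, with UD 3 the farthest from C in both sets. Upper quartile scaling turned the balance of the sets: 185 genes then had all UDR libraries above and 196 below the controls.

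Genes with a large fitted change were mostly scarce transcripts. A change of 2-fold or more in either direction was fitted for 1537 genes (11.3%), with 964 (7.1%) higher and 573 (4.22%) lower in UDR. At 4-fold or more there were 414 (3.05%), with 339 higher (2.5%) and 75 lower (0.553%). With the genes split by mean level into 4 classes of equal size, the class of the scarcest, up to 5.52 CPM, held 563 of the genes that were higher by 2-fold or more and 340 of the lower ones, or 26.6% of its genes. The share was 9.67% in the next class, 4.81% in the one after and 4.22% in the class above 53.1 CPM. The median SE of the log2 fold change fell in the same order, from 0.74 through 0.40 and 0.32 to 0.31. Of the 1537 genes, 131 had groups that did not overlap, 73 of them higher and 58 lower.

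**Figure D2:**
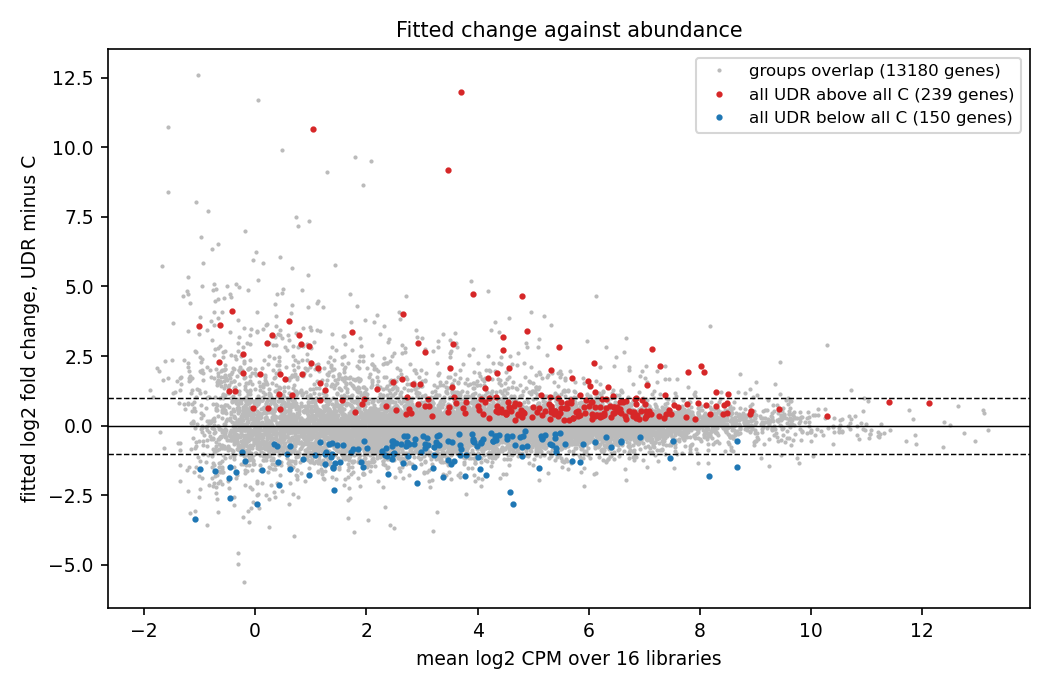
Fitted log2 fold change of UDR over C (y axis) against the mean log2 CPM over the 16 libraries (x axis), 1 point a gene. Dashed lines mark a 2-fold change; the 239 genes with all UDR libraries above all controls are red and the 150 with all below are blue, and most of both lie within the dashed lines.

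The share of counts in the most abundant transcripts of the control amnion differed between the groups by less than the spread between animals. The 10 most abundant genes of C took 7.93% ± 1.04 of the counts in C and 7.68% ± 3.58 in UDR (SD, n = 4). Their fitted log2 fold changes ran from -0.66 to 0.71, and 0 of the 10 had an unadjusted p under 0.05. Of the 100 most abundant, 2 were at 2-fold or more higher and 5 lower, and of the 1000 most abundant 22 and 29. The share of the 1000 varied far more in UDR, at 56.3% ± 6.37 (SD, n = 4), than in C, at 57.3% ± 0.560. The 10, 100 and 1000 genes were chosen by their mean level in these same C libraries. That choice by itself may favour a high and steady share in C. When each library's own 10 top genes were taken instead, their share was 9.93% ± 1.93 in UDR against 8.46% ± 0.889 in the controls (SD, n = 4), a difference of 1.47 percentage points (exact permutation p = 0.2, adjusted p = 0.4 over 2 measures, smallest possible 0.0286). Without UDR 4, which had the lowest share in UDR at 7.41%, this difference was 2.30 percentage points (exact permutation p = 0.0286, the smallest the 7 libraries allow). With any other library left out, the exact permutation p was 0.2 to 0.4.

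Among genes at 2-fold or more, the excess of higher over lower ones turned without UDR 3, while among those at an unadjusted p under 0.05 it held, with 323 higher and 191 lower. With all 8 libraries kept and the replicate number as a block, both balances turned in edgeR. At 2-fold or more 686 genes were then higher and 862 lower, and at an unadjusted p under 0.05 393 were higher and 444 lower. UDR 3 was the highest of the 4 UDR libraries in 705 (73.1%) of the 964 genes that were higher by 2-fold or more, UDR 2 in 160, UDR 4 in 60 and UDR 1 in 39. In the median over those genes, UDR 3 lay 2.99 above the mean of C in log2 CPM, against 0.92 in UDR 2, 0.45 in UDR 4 and 0.30 in UDR 1. Control C 1 was itself at 0.49 for them, the other controls at -0.26 to -0.16. Set against the same controls, UD 1 was at 1.32, UD 2 at 1.01, UD 3 at 0.28 and UD 4 at 1.12, and IA 2 at 1.55 with the other IA libraries at -0.06 to 0.42. UD 1, UD 2, UD 4 and IA 2 thus lay above UDR 1, UDR 2 and UDR 4 for these genes. Without UDR 3, 522 genes were higher and 682 lower by 2-fold or more, and 433 of the original 964 (44.9%) were among the higher ones. The lower genes were spread more evenly. The fitted change follows the group mean, which 1 high library can raise far but 1 low library can lower only in part. The way the sets were chosen thus favoured a more even spread among the lower genes. UDR 3 was the lowest in 243 of the 573 (42.4%), UDR 2 in 218, UDR 1 in 75 and UDR 4 in 37, with medians of -1.86, -1.85, -1.01 and -0.49. Without UDR 4, 1066 genes were lower by 2-fold or more.

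**Figure D3:**
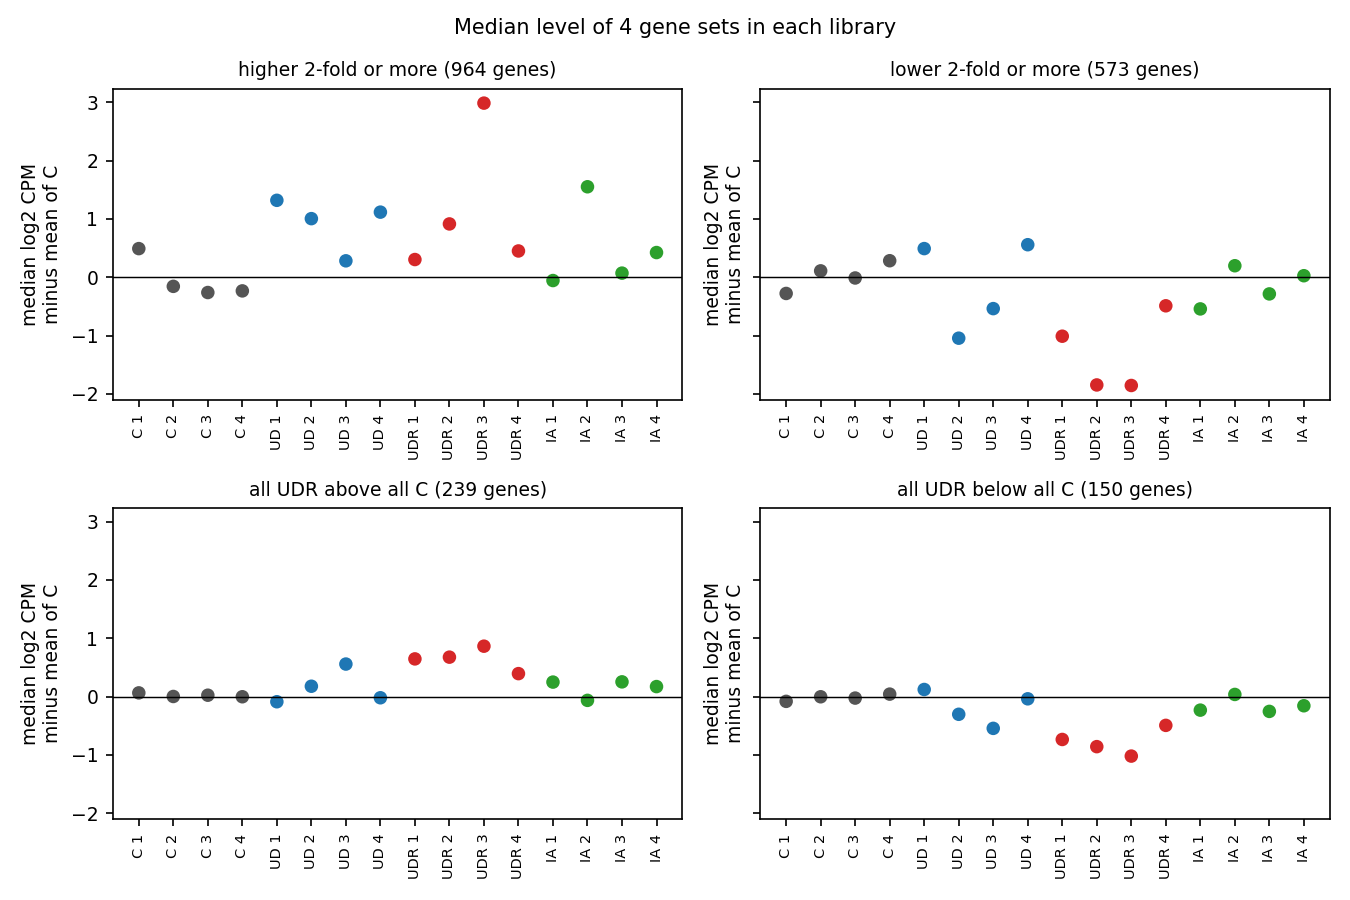
Median over the genes of a set of log2 CPM minus the mean of the 4 controls (y axis), in each library (x axis, coloured by group), for the genes fitted as higher (964) or lower (573) by 2-fold or more and for those whose UDR libraries lie all above (239) or all below (150) the controls. In the first set UDR 3 stands alone at 2.99, and in the others the UDR libraries lie closer together. How the sets were chosen fixed the direction of UDR against C. It did so for the group as a whole in the 2-fold sets and for each UDR library in the sets without overlap. In the sets without overlap each C library also had to lie on the far side of every UDR library. In the 2-fold sets the place of single C libraries was not fixed.

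The measure of change matters for this balance. The fitted fold change follows the mean level of a group, in which 1 high library counts for much. When the mean of log2 CPM was used in its place, 633 genes were higher and 776 lower by 2-fold or more. Limma-voom with quality weights, which gives less weight to libraries that deviate over many genes, fitted 750 higher and 1030 lower. Of the 964 higher genes, 265 (27.5%) stayed at 2-fold or more in the full fit and in each of the 8 fits with 1 library left out, and so did 196 (34.2%) of the 573 lower ones. Within these steadier sets, the groups did not overlap for 45 higher and 39 lower genes.

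**Figure D4:**
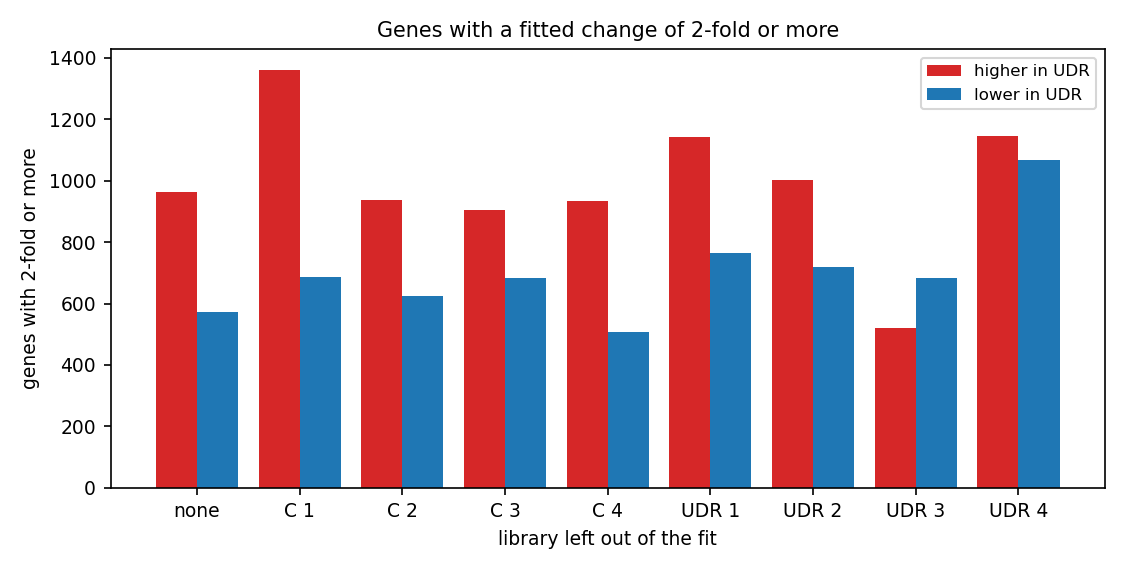
Number of genes with a fitted change of 2-fold or more, higher (red) or lower (blue) in UDR, with no library left out and with each UDR or C library left out in turn (x axis). The higher genes outnumber the lower ones (964 against 573) in the full fit and without any library except UDR 3, where 522 are higher and 682 lower.

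Most genes that left the control range by over 2-fold did so in 1 of the 4 UDR animals. A level more than 2-fold above the highest control was found for 1100 genes in UDR 3, 347 in UDR 2, 196 in UDR 4 and 129 in UDR 1. A level more than 2-fold below the lowest control was found for 1165, 680, 101 and 446. Such a level was seen in a single UDR animal for 1191 genes above the controls and 1553 below. It was shared by 2 animals for 254 and 362 genes, most often by UDR 2 and UDR 3, with 123 above and 236 below, and by UDR 3 and UDR 4 above, with 102. At least 3 animals shared it for 24 genes above and 38 below. The corresponding numbers in single animals were 878 above and 962 below in UD and 1408 and 1575 in IA. Shared by 2 animals were 743 above and 147 below in UD and 391 and 77 in IA.

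**Figure D5:**
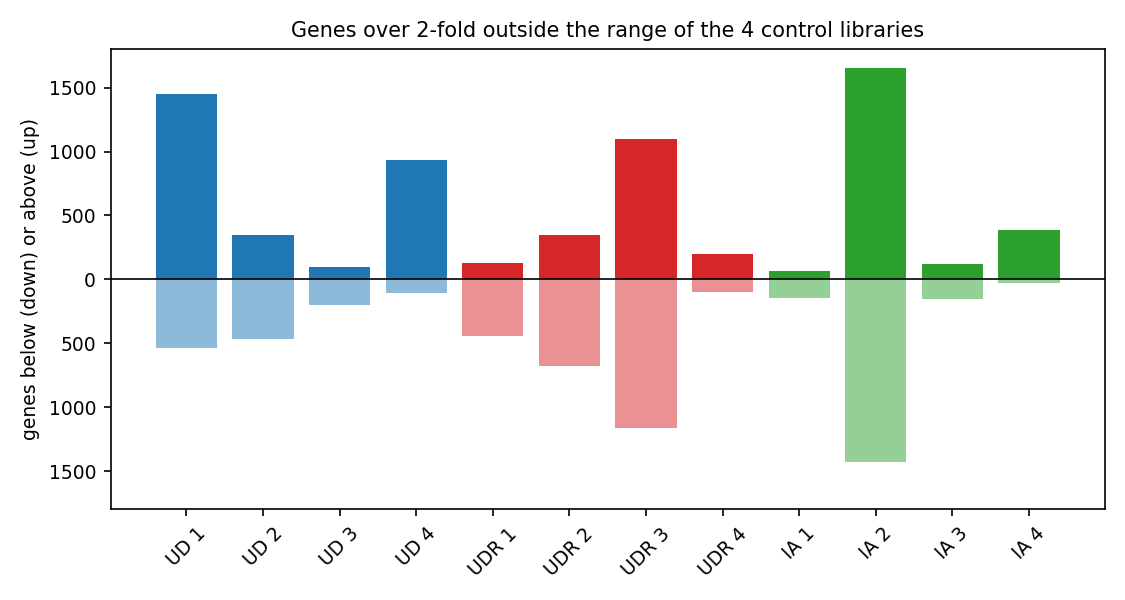
Number of genes whose level is more than 2-fold above the highest control (bars upward) or more than 2-fold below the lowest control (paler bars downward) in each of the 12 treated libraries. Among the UDR libraries UDR 3 has the most in both directions (1100 and 1165) and UDR 1 and UDR 2 have more below than above.

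The UDR animals were less alike than the controls. The median over genes of the SD of log2 CPM was 0.58 in UDR and 0.41 in C, and 9708 genes (71.5%) had the larger SD in UDR. Without UDR 3 the median SD in UDR was 0.47, and without C 1 that of C was 0.29. Over all genes tested, the Spearman correlation with the controls had a median of 0.961 for UDR 4, 0.931 for UDR 1, 0.901 for UDR 2 and 0.833 for UDR 3. For C 1 it was 0.902, against the other controls, and for C 2 to C 4 0.962 to 0.967. UDR 3 was thus the farthest of these 8 libraries from the controls, and C 1 was as far from them as UDR 2. In bulk tissue, a change in how many cells of a type the piece held and a change of RNA per cell cannot be told apart, and the part of either in these differences was not tested.

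Depth differed between the groups, because UDR 2 and UDR 3 had been sequenced in 2 runs. The UDR libraries held 12245460 to 30767263 counts and the controls 12307412 to 16956583. The number of gene IDs with counts was 16884.8 ± 499.8 in the UDR libraries and 16615.2 ± 300.3 in the controls (mean ± SD, n = 4), a difference of 269.5 (exact permutation p = 0.4, adjusted p = 0.4 over 2 measures). With all libraries thinned to 12245460 counts the sign turned, to -171 (exact permutation p = 0.429). No difference in the number of expressed genes was therefore detectable at equal depth.

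The precision left room for sizeable differences in many genes. The median 95% interval of a log2 fold change reached 0.86 to either side. For 5165 genes (38.1%) the whole interval lay within 2-fold of no change. This share was 6.72% in the class of the scarcest genes, 35.5% in the next, and 55.0% and 55.1% in the 2 most abundant classes. For the remaining genes the interval reached beyond a 2-fold difference on at least one side.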

How the data were processed

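RNA-seq was done on amnion, with 1 library per animal, on an Illumina HiSeq after selection of polyadenylated RNA, per the labels' protocols. The deposited values are raw counts of reads per gene ID. FastQC 0.11.3, HTSeq 0.6.1 and DESeq2 were used, per the submitters' processing notes; for the aligner, genome build, annotation and use of strand nothing is given in the sources used here, so reads of overlapping or near-identical genes are uncertain. All 18 columns of the table matched a sample by name. The runs of UDR 2 and of UDR 3 differed by little more than sampling noise (chi-square per degree of freedom 1.04 and 1.06, over genes with at least 20 counts, against 44.7 for the closest pair of different libraries) and were summed.

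Genes with a CPM of 1 or more in at least 4 of 16 libraries were kept; they hold 99.8% of the counts. Counts were scaled by TMM. The test was that of edgeR 4.0.16, under R 4.3.3 (quasi-likelihood F test, robust estimation, all 4 groups in 1 fit, group as the only term, two-sided, Benjamini-Hochberg adjustment over all genes tested, threshold 0.05). Printed CPM values are TMM-scaled, and log2 CPM used a prior count of 2. Single values per library were compared by two-sided exact permutation tests. Scripts were tested on simulated counts. The alternatives were DESeq2 1.42.0, voom with quality weights per sample from limma 3.58.1, other filters and scalings, first runs only, a lane term (with the summed runs of UDR 2 and UDR 3 taken as lane 2), a replicate block and each library left out; leaving out IA 2 and the mean of log2 CPM were added after the data were seen. The IDs given are the 2 higher and 2 lower with the smallest p; the symbols of the 14 gene lists that had been drawn up matched 0 IDs, so neither these lists nor cell type markers could be used. The comparison, the lists and the rules were chosen with earlier results of these data known. No paired animals are named in the labels.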

Additional observations from a re-analysis of the deposited data

Results flagged for a closer look

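Of 16 groups of 4 libraries examined, 2 held a value far from the other 3 (gap over range above 0.829). Chance gives about 1 in 20 groups where the 4 values are independent, and some of these measures depend on one another. The correlations of the 4 controls with each other are not independent values, so that rate does not hold for them. UDR 4 had 2031 genes above the highest control, against 3699 in UDR 1, 3881 in UDR 2 and 3809 in UDR 3. For C 1 the Spearman correlation with the other controls had a median of 0.902, against 0.962 to 0.967 in C 2 to C 4. Without C 1, 1300 genes had an unadjusted p under 0.05 between UDR and C, and without UDR 4 1447, with 0 called by edgeR in both fits.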

How the results depend on the processing

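edgeR called 0 genes under every filter, scaling and choice of libraries run. Limma-voom with quality weights and DESeq2 were run only with the main filter on all 16 libraries, and called 0 and 31 genes. The number at an unadjusted p under 0.05, 818 in the main fit, was 1288 with no filter and 1836 by limma-voom with quality weights. It was 495 with the lane term, and 504 (without C 2) to 1447 (without UDR 4) with 1 library left out. It was 514 without UDR 3 and 526 without C 4. Of the 818, 766 were among the 1288, 559 among the 1836 and 140 among the 495, with the same sign. In all 8 fits with 1 library left out, 111 higher and 49 lower genes of the 818 kept a p under 0.05. The number at 2-fold or more, 1537 in the main fit, was 5086 with no filter, where scarce transcripts enter. It was 3186 with the lane term, of which 1216 were among the 1537 with the same sign. It ran from 1204 (without UDR 3) to 2212 (without UDR 4) with 1 library left out. The difference in genes with counts was -201.25 with first runs only and -171 after thinning, where depth is more even; it was 65.1 to 428.4 with 1 library left out, and that in the share of the top 10 genes 0.864 to 2.30 percentage points. The 4 IDs kept their direction in 19 alternatives each. They were chosen by p in this comparison and their groups did not overlap, so a change of direction was unlikely from the start. DESeq2 called all 4, among 31 genes. The adjusted p over these alternatives ran from 2.16e-04 (ENSOARG00000007806), 0.0012 (ENSOARG00000013082), 0.035 (ENSOARG00000007076) and 0.0496 (ENSOARG00000018006), each by DESeq2, to 0.99999. Against UD, ENSOARG00000007806 was called by DESeq2 and limma-voom (adjusted p 0.0086 to 0.988 over 17 alternatives) and ENSOARG00000018006 by limma-voom (0.043 to 0.988). edgeR called 0 genes against UD. How many genes DESeq2 and limma-voom called there was not counted, so these calls do not single out the IDs. Without IA 2, 1036 genes had an unadjusted p under 0.05. The labels name no pairs of animals. Deviations of same-numbered C and UDR libraries from their group means correlated at -0.07, -0.19, -0.09 and 0.22. Only C 4 correlated best with its own number. Such values cannot decide whether same-numbered animals were paired, as single libraries that deviate widely weigh heavily in them. With the replicate number as a block over these 8 libraries, edgeR called 0 genes, and 393 higher and 444 lower genes, 837 in all, had an unadjusted p under 0.05. With 4 animals a side, the spread between animals and the lanes that follow the groups set the limit.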
